A study of Mus musculus with 27 samples.

Results

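Exposure to acetaminophen for 6 h was compared here with exposure to its regioisomer for 6 h, in the mouse hepatocyte line TAMH. Acetaminophen (APAP) is N-acetyl-para-aminophenol, and AMAP is N-acetyl-meta-aminophenol, in which the same hydroxyl group sits at the meta position of the ring. The members are 6 of the 27 arrays of the study, chosen by their labels: 3 arrays of cells given 2 mM APAP and 3 arrays of cells given 2 mM AMAP, all harvested at 6 h. The other 21 arrays are the controls in culture medium alone at 2, 6 and 24 h and both compounds at 2 and 24 h, with 3 arrays for each of the 9 groups. TAMH cells were derived from mice that overexpress transforming growth factor alpha, so every group, controls included, is a growth-factor-driven, immortal line, grown without serum and with dexamethasone at passages 25 to 35. Each group carries arrays numbered 30, 31 and 32, written P30 to P32 in the labels, which do not say whether the number is the passage. The labels do not state whether these are separate cultures, so the p-values measure the spread between arrays, which may be technical. The title of the study names mitogen-activated protein kinases (MAP kinases) as its subject, and the comparison of the isomers asks which transcripts respond to one compound and not to the other.

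Acetaminophen is oxidised in hepatocytes to a reactive quinone imine that binds glutathione and cell proteins, and overdose kills liver cells. AMAP also forms reactive metabolites, but it has long served as the less toxic comparator in mouse liver. Stressed cells switch on immediate early transcription factors through the MAP kinases, genes of the tumour suppressor p53 that halt the cell cycle or start cell death, and the ATF4 program that follows translation arrest. Dividing cells express replication genes at the G1/S boundary and spindle genes around mitosis.

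The 6 arrays were alike in overall signal. Their median log2 signal over 19938 genes lay between 7.29 and 7.35. The deposited values are quantile-normalised, which by itself makes the medians alike. The Pearson correlation across genes was 0.9933 to 0.9969 for the 6 pairs of arrays of one compound and 0.9929 to 0.9960 for the 9 pairs across compounds. Hepatocyte markers were well expressed, with albumin (Alb) at a mean log2 signal of 13.71 with APAP and 13.73 with AMAP. Markers of leukocytes and endothelium gave low signal, with Ptprc at 5.82 and 5.88 and Pecam1 at 5.95 and 5.96 in the same groups. None of the 23 hepatocyte, 6 biliary, 14 fibroblast and stellate, 13 leukocyte and 12 endothelial markers measured passed the test between the compounds.

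At an adjusted p below 0.05, a gene was called different between the compounds. Signal was higher with APAP than with AMAP for 95 genes (0.476% of the 19938 tested) and lower for 46 genes (0.231%), or 141 genes in all (0.707%). The genes that rose included stress transcription factors, p53 targets and G1/S genes, and the largest falls were led by mitotic and histone genes. These groups do not cover all calls. Only 54 of the 141 called genes belonged to any of the 31 gene lists used here, 30 of the 95 higher and 24 of the 46 lower. The called differences were modest, from 0.29 to 1.84 on the log2 scale with a median of 0.57. Only 10 called genes differed by at least 2-fold: Atf3, Ptgs2, Slc4a11, Txnip, Jun and Mybl1 were higher with APAP (0.0301% of all genes), and Cenpf, H2ac4, Bub1b and H1f5 were lower (0.0201%). In 139 of the 141 called genes the 3 arrays of one compound lay entirely above the 3 of the other. Over all genes, whether called or not, the arrays did not overlap with APAP above in 5.09% and with AMAP above in 5.34%. With the array number as a block the count of lower genes rose from 46 to 70. The count of all called genes depended on single arrays: it was 51 without AMAP array 30, 82 without AMAP array 31, 84 without APAP array 30, 92 without APAP array 31, 70 without APAP array 32 and 167 without AMAP array 32.

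**Figure D1:**
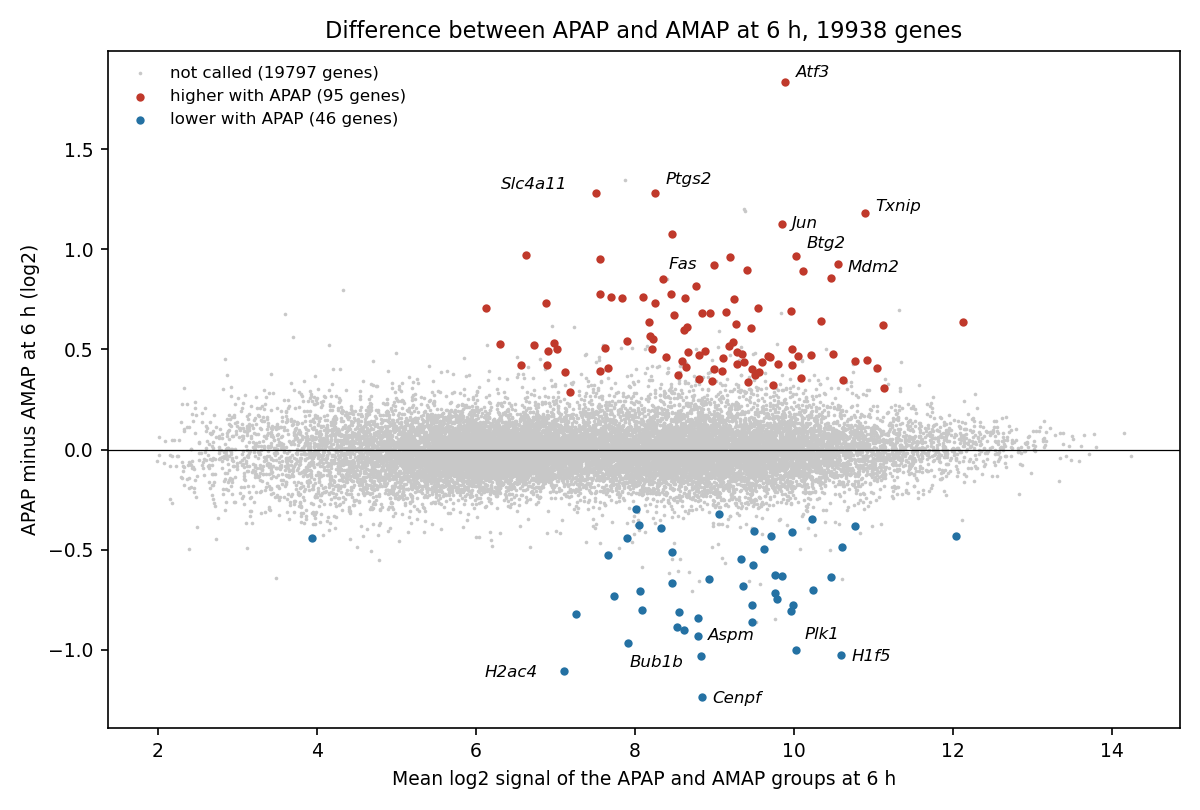
Difference between APAP and AMAP at 6 h (log2, vertical axis) against the mean log2 signal of both groups (horizontal axis), 1 point per gene, for 19938 genes. The 95 genes called higher with APAP are red, the 46 called lower are blue, and the called genes run from -1.24 for Cenpf to 1.84 for Atf3.

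The isomers gave nearly equal signal for most genes. The 95% confidence interval of the difference, not corrected for the number of genes, lay within a 2-fold change in either direction for 19859 genes (99.6%) and within a 1.5-fold change for 19279 genes (96.7%). No intensity filter was applied, so these shares include dim genes, in which small differences are weak evidence of equal expression. The median difference over all genes was -0.009. For the called genes, the control arrays at 6 h lay nearer to AMAP. The control mean was closer to the AMAP mean than to the APAP mean for 127 of the 141 called genes (90.1%), for 82 of the 95 higher genes (86.3%) and for 45 of the 46 lower genes (97.8%), beside 51.3% of all genes. That description carries no test, since the comparisons share arrays.

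Targets of p53 were higher with APAP. Of 25 measured members of this list, 15 rose and none fell, against 0.476% of all genes called higher, and the median difference was 0.54 against -0.009 over all genes. The list was drawn up with earlier results of these data known, so the count is not independent evidence of its direction. Mdm2, the ubiquitin ligase that p53 induces and that degrades p53, had log2 signals of 10.87, 11.13 and 11.04 on the APAP arrays numbered 30, 31 and 32, and of 9.96, 10.31 and 10.00 on the AMAP arrays. The lowest APAP array stood above the highest AMAP array, and the controls, at 9.98, 10.35 and 9.99, lay close to AMAP array by array. The difference was 0.93 ± 0.14 (SE, n = 3 against 3), a 1.90-fold change with an adjusted p of 6.09e-04. Fas, the death receptor, gave 9.49, 9.44 and 9.44 with APAP against 8.61, 8.41 and 8.58 with AMAP. These groups were tight and far apart, with a difference of 0.92 ± 0.10 and an adjusted p of 9.27e-06. Btg2, an antiproliferative cofactor, gave 10.46, 10.44 and 10.65 against 9.64, 9.51 and 9.50, again with no overlap, and a difference of 0.97 ± 0.12 (adjusted p = 8.87e-05).

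Other members of the list include apoptosis genes. Pmaip1, which encodes the BH3-only protein NOXA, was higher by 0.61 ± 0.10 (adjusted p = 0.0021), and Bbc3, which encodes PUMA, by 0.39 ± 0.08 (adjusted p = 0.0181). These were the 2 called members of the 14 BCL2 family genes measured, beside 0.476% of all genes called higher. Perp, a membrane protein of p53-dependent apoptosis, was higher by 0.47 ± 0.08 (adjusted p = 0.0045). The remaining called members were Aen, Ccng1, Eda2r, Phlda3, Polk, Sesn2, Tnfrsf10b, Trp53inp1 and Zmat3, and the 15 called members together spanned 0.39 to 0.97. Phlda3, a repressor of AKT, differed by 0.86 ± 0.19 (adjusted p = 0.0258) but lost its call without AMAP array 30 (0.0833), AMAP array 32 (0.1516), APAP array 30 (0.1451) or APAP array 31 (0.092). Bbc3 lost its call without AMAP array 30 (0.0855), AMAP array 31 (0.0825), APAP array 30 (0.0554), APAP array 31 (0.0533) or APAP array 32 (0.0895). Not every member of the list moved. Ddb2 and Xpc, which recognise DNA damage in nucleotide excision repair and are named here after their values were seen, differed by 0.09 (95% interval -0.13 to 0.30) and -0.02 (-0.15 to 0.12). Sesn1 differed by -0.05 (-0.22 to 0.12), while its paralogue Sesn2 was called at 0.76. Within each array number the list median was positive, at 0.46 for number 30, 0.42 for 31 and 0.68 for 32, and 21 of the 25 members were above 0 in all 3, beside 14.8% of all genes. The number of called members was 8 without AMAP array 30 and 9 without APAP array 32. Without all arrays numbered 30 it was 4, and without those numbered 32 it was 5. With the 9 arrays of 6 h it was 7. With the 6 arrays of the comparison alone it was 4, and 16 with the array number as a block among them.

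Immediate early transcription factors gave the largest single difference. Atf3, a stress-induced repressor of the ATF/CREB family, had log2 signals of 10.54, 10.69 and 11.21 with APAP, 8.97, 8.77 and 9.17 with AMAP and 8.78, 8.65 and 9.10 in the controls. All APAP arrays stood at least a full log2 unit above every other array at 6 h. The difference from AMAP was 1.84 ± 0.24, a 3.58-fold change with an adjusted p of 1.35e-04. Jun, the AP-1 subunit that pairs with Fos or ATF proteins and is a substrate of the JNK MAP kinases, gave 10.11, 10.34 and 10.79 against 9.27, 9.15 and 9.44. The APAP arrays lay above all AMAP arrays, with number 32 highest in each group. The difference was 1.13 ± 0.21 (adjusted p = 0.0074), and without APAP array 32 it was 0.94 with an adjusted p of 0.0822. Btg2, described among the p53 targets, is also on the immediate early list, and with Atf3 and Jun it made up the 3 called genes of 38, beside 0.476% of all genes called higher. Egr1, a zinc-finger early gene, did not pass, at 0.52 ± 0.16 (adjusted p = 0.1856). The list median was 0.18, with 29 members above 0 and 9 below. Within the numbers 30, 31 and 32 it was 0.18, 0.00 and 0.29, beside -0.05 over all genes in number 31. In number 31, 19 members lay above 0 and 19 below. In all 3 numbers 19 of the 38 were above 0, beside 14.8% of all genes.

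The promoters of these early genes are shown because Jun and Btg2 carry ATF/CREB-like letters close to the start of transcription. The sequences are from RefSeq on GRCm38.p6 and run 5′ to 3′ on the strand of the gene, ending at the base before the start. Capitals mark TGACGTCA, its variant TGACATCA, and CCAAT on either strand. The Jun stretch is chr4:95052223-95052362 (minus strand), with TGACATCA starting 45 bases before the start of transcription. For Btg2 it is chr1:134079156-134079335 (minus strand), with TGACGTCA starting 166 bases before it.
Jun: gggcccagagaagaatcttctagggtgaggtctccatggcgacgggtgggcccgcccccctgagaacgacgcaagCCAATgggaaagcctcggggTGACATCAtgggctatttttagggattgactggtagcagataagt
Btg2: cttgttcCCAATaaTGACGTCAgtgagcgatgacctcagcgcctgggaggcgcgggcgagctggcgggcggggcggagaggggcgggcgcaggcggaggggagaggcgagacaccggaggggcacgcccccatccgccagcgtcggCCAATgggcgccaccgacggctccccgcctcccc
Across the 32851 promoter windows of 300 bases in the RefSeq table, from 250 bases before to 50 after a start, TGACGTCA occurred in 1.79% and TGACATCA in 3.62%, counting both strands. In the 19116 windows of the measured genes the shares were 2.37% and 2.48%. Among the 91 windows of the genes called higher, TGACGTCA occurred in 5 (5.49%) and TGACATCA in 1 (1.1%). These matches describe letters and not binding.

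ATF4 targets moved in a few members only. The integrated stress response raises translation of the transcription factor ATF4, which drives amino acid synthesis genes and the factor CHOP. Of 33 measured members 3 were called, all higher with APAP, beside 0.476% of all genes, and the list median was 0.05. Ddit3, which encodes CHOP, gave 9.39, 9.53 and 9.55 with APAP, 8.77, 8.85 and 8.79 with AMAP and 8.41, 8.44 and 8.41 in the controls. The 3 groups did not overlap and AMAP lay between control and APAP. The difference between the isomers was 0.69 ± 0.17 with an adjusted p of 0.0484, just under the threshold. Leaving out any 1 of the 6 arrays ended this call, with adjusted p between 0.096 (without APAP array 30) and 0.2022 (without AMAP array 30). Ppp1r15a, the phosphatase subunit GADD34 that reverses the translation arrest, gave 8.70, 8.51 and 9.14 against 7.89, 7.94 and 7.97, a difference of 0.85 ± 0.19 (adjusted p = 0.0328). Sesn2, a sestrin that restrains TORC1 and is shared with the p53 list, differed by 0.76 ± 0.16 (adjusted p = 0.018). Without AMAP array 30 the adjusted p was 0.1606 for Ppp1r15a and 0.0839 for Sesn2, and without APAP array 32 it was 0.24 and 0.1213. Ppp1r15a was also lost without AMAP array 31 (0.1101), AMAP array 32 (0.0659) or APAP array 30 (0.0797), and Sesn2 without AMAP array 32 (0.072) or APAP array 30 (0.0621). The amino acid response genes Asns and Trib3, named after their values were seen, differed by -0.04 (95% interval -0.36 to 0.29) and 0.05 (-0.37 to 0.47). None of the 22 endoplasmic reticulum chaperones and none of the 18 heat shock genes passed the test.

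Several of the largest increases belong to none of the pathways above. Slc4a11, a membrane transporter, gave 8.30, 8.09 and 8.08 with APAP against 6.60, 7.10 and 6.93 with AMAP. Its groups were separated by about a log2 unit, and the difference was 1.28 ± 0.14 (adjusted p = 9.27e-06). Mybl1, the transcription factor A-MYB, gave 9.00, 8.99 and 9.01 against 7.98, 7.85 and 7.95, a difference of 1.08 ± 0.13 (adjusted p = 2.18e-05). Its 3 APAP arrays were nearly identical. Txnip, the thioredoxin-interacting protein, gave 11.45, 11.63 and 11.38 against 10.62, 10.62 and 9.67, a difference of 1.18 ± 0.23 (adjusted p = 0.0087). AMAP array 32 was about a log2 unit below its partners, and the call was lost without it (difference 0.86, adjusted p = 0.0616) or without APAP array 31 (1.11, 0.0533). Arrdc3, an arrestin of the same family as Txnip, gave 9.51, 9.37 and 10.16 against 8.84, 8.64 and 8.67, a difference of 0.96 ± 0.19 (adjusted p = 0.0082) that was 0.72 (adjusted p = 0.0916) without APAP array 32. Pm20d1, a secreted enzyme that makes N-acyl amino acids, was higher by 0.95 ± 0.10 (adjusted p = 9.27e-06). Ddias, a suppressor of apoptosis after DNA damage, was higher by 0.89 ± 0.14 (adjusted p = 8.86e-04). Prrg4, a transmembrane protein with a vitamin K-dependent domain, had the smallest p of these, at 0.90 ± 0.09 (adjusted p = 3.30e-06).

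Cytokine and inflammatory genes also differed between the isomers, and for Tnfsf18 and Lif all AMAP arrays lay below all controls. Ptgs2, the inducible cyclooxygenase, gave 8.46, 8.63 and 9.59 with APAP, 7.44, 7.30 and 8.09 with AMAP and 8.0, 7.91 and 8.61 in the controls. Number 32 was the highest array in all 3 groups, and the APAP and AMAP arrays did not overlap, while AMAP array 32 lay above 2 of the 3 controls. The difference was 1.28 ± 0.23 (adjusted p = 0.0051), and 0.93 with an adjusted p of 0.0536 without APAP array 32. Between AMAP and control Ptgs2 differed by -0.57, which did not pass (adjusted p = 0.4154). Tnfsf18, the ligand of the receptor GITR, gave 6.83, 6.79 and 7.72 with APAP, 6.02, 6.07 and 6.33 with AMAP and 6.85, 6.76 and 7.26 in the controls. The APAP and AMAP arrays did not overlap. The isomers differed by 0.97 ± 0.16 (adjusted p = 0.0022), AMAP differed from control by -0.81 (adjusted p = 0.02) and APAP from control by 0.16 (adjusted p = 0.8124). Lif, a cytokine of the interleukin-6 family, showed the same order, with 8.70, 8.63 and 9.19, then 7.89, 7.94 and 8.36, then 8.67, 8.61 and 9.10. Its difference between the isomers was 0.78 ± 0.15 (adjusted p = 0.0097), and AMAP differed from control by -0.73 (adjusted p = 0.0269). The Lif call was lost without AMAP array 30 (0.1032), AMAP array 31 (0.064) or APAP array 32 (0.1099).

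Other chemokine and growth factor genes differed by as much but varied with the array number. Cxcl2, a neutrophil chemokine, gave 8.09, 7.97 and 9.58 with APAP and 6.70, 6.55 and 8.36 with AMAP. Each APAP array exceeded the AMAP array of its number, but AMAP array 32 overlapped the APAP arrays. The difference was 1.35 ± 0.37 with an adjusted p of 0.104, and of 0.011 with the array number as a block. Csf2, which encodes GM-CSF, differed by 1.20 (adjusted p = 0.0999, and 0.0257 with the block), and the interferon-inducible chemokine Cxcl10 by 1.19 (adjusted p = 0.0579, and 0.0011 with the block). Ptgs2 and Lif were thus the 2 called members of 37 on the cytokine list, beside 0.476% of all genes called higher. The list median difference was 0.14, and with the block 5 members were called. Without APAP array 32 no member was called, without AMAP array 30 or AMAP array 31 there was 1, and without AMAP array 32 there were 5. Of 25 interferon and nucleic acid sensing genes, Cgas, the cytosolic DNA sensor, was the only one called, at 0.42 ± 0.09 (adjusted p = 0.0274). It lost its call without AMAP array 30 (0.2175), AMAP array 31 (0.1159), APAP array 30 (0.0686) or APAP array 32 (0.2046).

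**Figure D2:**
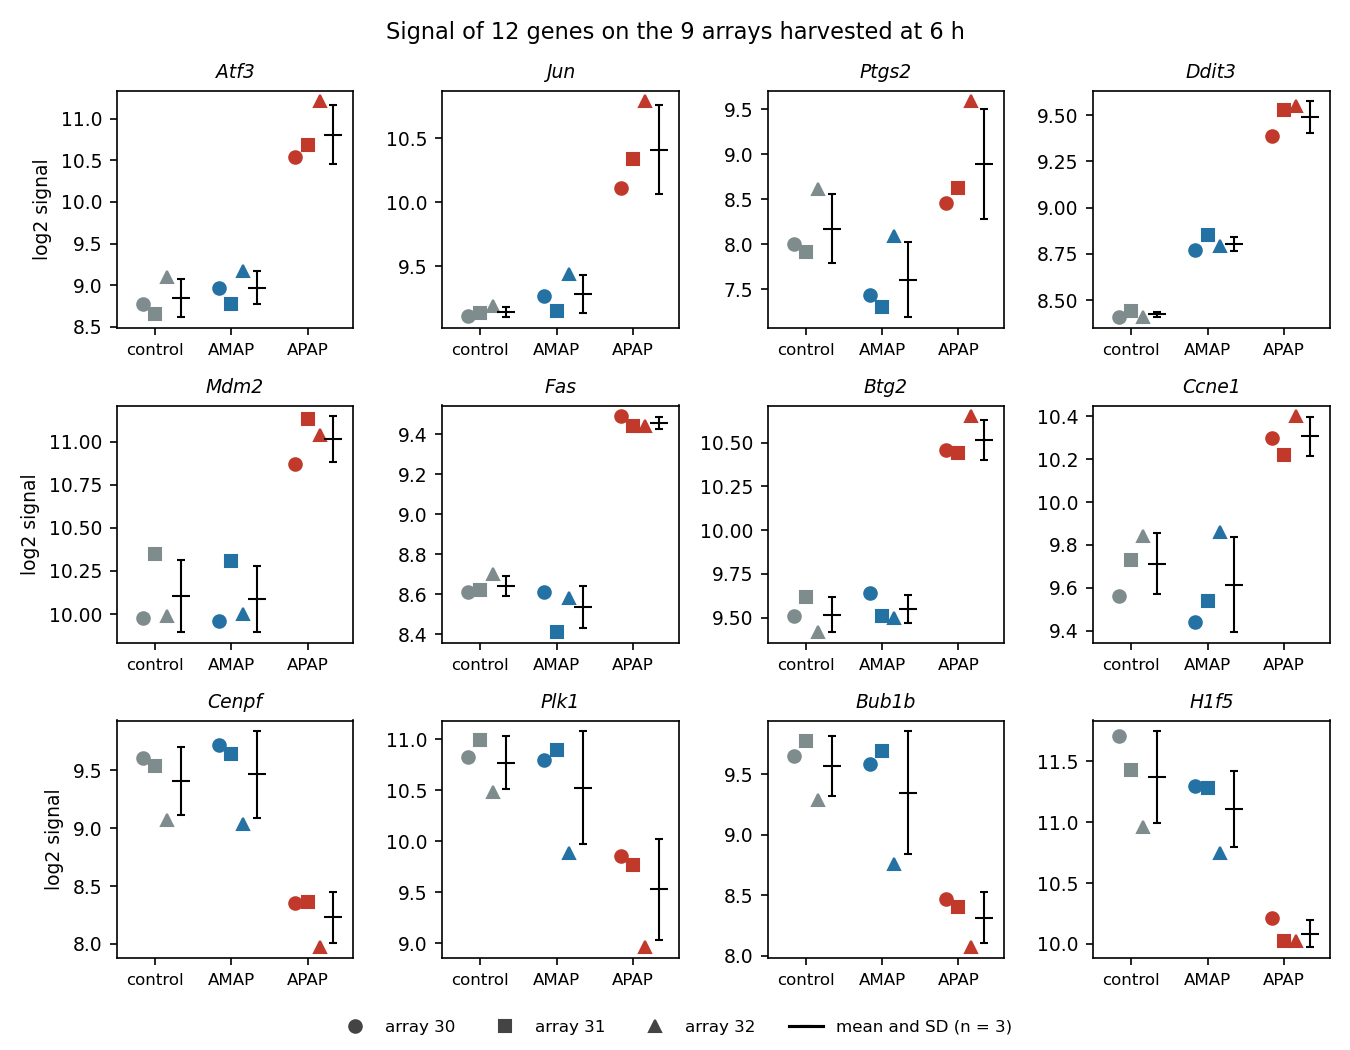
Log2 signal of 12 genes on the 9 arrays harvested at 6 h, for control, AMAP and APAP (horizontal axis), with array numbers as symbols and the mean and SD (n = 3) beside each group. The APAP arrays lie above all AMAP arrays for Atf3, Jun, Ptgs2, Ddit3, Mdm2, Fas, Btg2 and Ccne1 and below all of them for Cenpf, Bub1b and H1f5, while for Plk1 APAP array 30 (9.86) lies just below AMAP array 32 (9.89).

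Genes of mitosis were lower with APAP. The list holds regulators and machinery of G2/M, the spindle and the kinetochore. Of 61 measured members 18 fell and none rose, against 0.231% of all genes called lower, and the median difference was -0.40, with 57 members below 0. Cenpf, a kinetochore protein, gave 8.35, 8.36 and 7.97 with APAP, 9.72, 9.64 and 9.04 with AMAP and 9.61, 9.54 and 9.07 in the controls. AMAP and control arrays coincided and every APAP array was lower. The difference was -1.24 ± 0.17, a 2.36-fold decrease with an adjusted p of 1.77e-04. Bub1b, the spindle checkpoint kinase BUBR1, gave 8.47, 8.40 and 8.07 against 9.58, 9.69 and 8.76, a difference of -1.03 ± 0.18 (adjusted p = 0.0032). Aspm, which acts at spindle poles, gave 8.45, 8.40 and 8.14 against 9.48, 9.34 and 8.96, a difference of -0.93 ± 0.14 (adjusted p = 7.51e-04). In both genes array 32 was the lowest of its group, with no overlap between the groups. Tpx2, an activator of Aurora A, differed by -0.81 ± 0.12, Prc1, which bundles microtubules at the midzone, by -0.70 ± 0.11 (adjusted p = 8.86e-04 for each), and Depdc1a by -0.89 ± 0.14 (adjusted p = 0.0018).

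Plk1, the polo-like kinase that drives mitotic entry, gave 9.86, 9.77 and 8.96 with APAP against 10.80, 10.89 and 9.89 with AMAP. Within each number the APAP array was about a log2 unit lower, and the groups did not overlap, though APAP array 30 lay just below AMAP array 32. The difference was -1.0 ± 0.22 (adjusted p = 0.0277), and the call was lost without AMAP array 30 (0.2128), AMAP array 31 (0.2139) or APAP array 32 (0.2358). The kinesins Kif2c (-0.86 ± 0.16, adjusted p = 0.0074) and Kif18a (-0.80 ± 0.16, adjusted p = 0.0094), both of which control microtubule length at kinetochores, were lost without the same arrays. For Kif2c the adjusted p was then 0.0787, 0.064 and 0.066, and for Kif18a 0.0707, 0.0726 and 0.0916. Genes outside the list that were among the 15 largest decreases included Cdkn3, a phosphatase of cyclin-dependent kinases (-0.81 ± 0.18, adjusted p = 0.0326), and Pif1, a DNA helicase (-0.82 ± 0.17, adjusted p = 0.0164). Without AMAP array 30 the adjusted p was 0.2227 for Cdkn3 and 0.1502 for Pif1, without AMAP array 31 it was 0.2376 and 0.1159, and without APAP array 32 it was 0.2358 and 0.1172. Cdkn3 was also lost without APAP array 31 (0.0724) and Pif1 without APAP array 30 (0.0505).

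The arrays numbered 32 carried less mitotic signal in every group. The mean log2 signal of the 61 genes on arrays 30, 31 and 32 was 9.44, 9.33 and 9.12 with APAP, 9.85, 9.89 and 9.49 with AMAP and 9.91, 9.91 and 9.61 in the controls. The APAP array was the lowest of the 3 groups within each number. Within the numbers the median difference was -0.36, -0.58 and -0.33, and 53 of the 61 genes were below 0 in all 3 numbers, beside 16.3% of all genes. With the array number as a block 27 members were called lower. The number of called members followed the arrays used: 6 without AMAP array 30, 6 without AMAP array 31, 11 without APAP array 31, 7 without APAP array 32 and 30 without AMAP array 32. In whole cultures, fewer cells in mitosis and less mitotic RNA per cell cannot be told apart.

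Promoter sequences of 4 of these genes, picked by hand, are shown because many of the genes that fell carry a short element. TTTGAA is the core of the cell cycle homology region through which the DREAM complex silences late cell cycle genes, and CCAAT binds NF-Y. The sequences are from RefSeq on GRCm38.p6, 5′ to 3′ on the strand of the gene, with both motifs in capitals on either strand (TTCAAA and ATTGG are the reverse strands). They start 140 bases before the start of transcription. Cenpf at chr1:189688072-189688226 (minus strand) and Aspm at chr1:139454633-139454787 (plus strand) run 15 bases past it. Depdc1a at chr3:159495293-159495432 and Prc1 at chr7:80294336-80294475, both on the plus strand, end at the base before it.
Cenpf: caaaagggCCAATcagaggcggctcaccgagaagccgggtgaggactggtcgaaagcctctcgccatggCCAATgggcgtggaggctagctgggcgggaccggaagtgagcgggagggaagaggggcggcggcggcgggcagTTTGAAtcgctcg
Aspm: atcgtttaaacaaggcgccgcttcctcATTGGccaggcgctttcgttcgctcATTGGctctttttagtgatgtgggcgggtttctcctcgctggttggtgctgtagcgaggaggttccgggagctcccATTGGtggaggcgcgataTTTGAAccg
Depdc1a: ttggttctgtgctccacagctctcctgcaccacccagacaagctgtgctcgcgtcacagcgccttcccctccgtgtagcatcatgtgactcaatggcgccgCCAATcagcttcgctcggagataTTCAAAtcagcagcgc
Prc1: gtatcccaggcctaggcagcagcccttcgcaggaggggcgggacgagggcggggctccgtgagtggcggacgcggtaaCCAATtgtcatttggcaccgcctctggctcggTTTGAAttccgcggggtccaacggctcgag
TTTGAA starts at base 3 of the Cenpf transcript and base 7 of the Aspm transcript, and 16 and 30 bases before the start in Depdc1a and Prc1. Of the 46 genes that fell, 40 had a window in the RefSeq table, with 42 windows of 300 bases. TTTGAA on either strand occurred in 29 of these 42 windows (69%). It occurred in 17.9% of all 32851 windows, 14.8% of the 19116 windows of measured genes and 13.2% of the 91 windows of genes that rose. CCAAT occurred in 31 of the 42 (73.8%), beside 37.4% of all windows, 37.4% of those of measured genes and 50.5% of those of genes that rose. In none of the 42 windows did the 2 motifs overlap. The 53 windows of the mitosis list, which shares genes with the 46, held each motif in 39 (73.6%). The 20 windows of the replication-dependent histone list, which also shares genes with the 46, held TTTGAA in 10 (50%) and CCAAT in 17 (85%). In the 54 windows of the G1/S list TTTGAA occurred in 18.5% and CCAAT in 59.3%. These shares are descriptions of letters, without a test.

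Replication-dependent histone genes were lower with APAP. They encode the histones made in S phase, and their members are so alike in sequence that a probe set may read more than 1 of them, so single values are uncertain. Of 24 measured members 6 fell and none rose, against 0.231% of all genes called lower, all 24 differences were below 0, and the median was -0.36. H1f5, a linker histone, gave 10.21, 10.02 and 10.02 with APAP, 11.30, 11.28 and 10.75 with AMAP and 11.71, 11.43 and 10.96 in the controls. The groups of the isomers did not overlap, and the difference was -1.03 ± 0.18 (adjusted p = 0.0045). H2ac15, a histone H2A gene, gave 9.06, 8.99 and 9.20 against 9.99, 9.89 and 9.71, a difference of -0.78 ± 0.11 (adjusted p = 6.09e-04). The H2B gene H2bc3 differed by -0.97 ± 0.18 (adjusted p = 0.0051) and the H2A gene H2ac4 by -1.11 ± 0.21 (adjusted p = 0.0062). Without AMAP array 30 the adjusted p became 0.0512 for H1f5, 0.0558 for H2bc3 and 0.083 for H2ac4, and 1 list member remained called. The list means for arrays 30, 31 and 32 were 8.15, 8.03 and 8.22 with APAP, below the 8.69, 8.67 and 8.45 of AMAP and the 8.74, 8.66 and 8.42 of control. Within the numbers the median difference was -0.55, -0.61 and -0.30. With the 6 arrays of the comparison alone 3 members were called, and 9 with the array number as a block among them.

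Genes of DNA replication and the G1/S boundary went the opposite way. Of 55 measured members 7 rose and none fell, against 0.476% of all genes called higher, with a median of 0.22 and 53 members above 0. Ccne1, which encodes cyclin E1, the activator of CDK2 at S phase entry, gave 10.30, 10.22 and 10.40 with APAP against 9.44, 9.54 and 9.86 with AMAP. The groups were apart by more than their spread, and the difference was 0.69 ± 0.12 (adjusted p = 0.0035). The other called members, listed in full whether or not the naming rule chose them, were Ccne2 (0.67), Dtl (0.47), E2f8 (0.47), E2f7 (0.44), Prim1 (0.44) and E2f1 (0.37). They encode a second E-type cyclin, a substrate adaptor of a ubiquitin ligase that acts on replicating DNA, 3 E2F transcription factors and the DNA primase subunit. These calls were not stable to single arrays. The list had 1 called member without AMAP array 30, 2 without AMAP array 31 and 2 without APAP array 30. It had 4 without APAP array 31 and 1 without APAP array 32. With the 6 arrays of the comparison alone it had 0, and 6 with the array number as a block among them. Prim1 was lost without AMAP array 30 (0.1023), AMAP array 31 (0.1167), APAP array 30 (0.0522) or APAP array 32 (0.0561). E2f1 had an adjusted p from 0.064 to 0.1646 without any 1 array other than AMAP array 32. E2f7 reached from 0.0587 to 0.215 without any 1 array other than AMAP array 31, and E2f8 from 0.0568 to 0.2101 without any 1 of the 6. Within the numbers the list median was 0.29, 0.14 and 0.26, and 41 of the 55 members were above 0 in all 3, beside 14.8% of all genes. None of 29 homologous recombination, Fanconi and checkpoint genes passed the test, at a median of 0.14.

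Among transcripts of the MAP kinase pathways few passed the test. Of 59 kinases, scaffolds and effectors 1 was called, beside 0.476% of all genes called higher, and the list median was 0.00. Mapkapk3, a kinase activated by p38, gave 7.31, 6.88 and 6.78 with APAP against 6.53, 6.63 and 6.26 with AMAP. Its groups did not overlap, and the difference was 0.52 ± 0.12 (adjusted p = 0.0376). The call was lost without AMAP array 30 (0.1224), AMAP array 32 (0.1704), APAP array 30 (0.345) or APAP array 31 (0.0565). Gadd45a and Gadd45g, small stress proteins that activate the p38 and JNK pathways, differed by 0.68 ± 0.18 (adjusted p = 0.0823) and 0.46 ± 0.12 (adjusted p = 0.0616). With the array number as a block both were called, at 0.007 and 0.0475, and the list then had 3 called members. Gadd45a was 9.94, 10.05 and 10.54 with APAP, 9.34, 9.39 and 9.76 with AMAP and 9.01, 8.94 and 9.16 in the controls, so that AMAP lay between the other groups. None of the 18 MAP kinase phosphatases and Sprouty or Spred inhibitors was called. Dusp1, the best known of these phosphatases, differed by 0.39 (95% interval 0.01 to 0.77) and Dusp8, which acts on JNK, by 0.34 (0.11 to 0.58). A second, dimmer probe set of Dusp8 differed by 0.64 ± 0.17. None of the 12 EGF receptor ligands, receptors and inhibitors was called, and Tgfa, the growth factor that defines the line, differed by 0.04 (-0.15 to 0.23).

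Genes of oxidative defence and drug metabolism gave no call at 6 h. NRF2 is the factor that senses electrophiles and induces glutathione synthesis. None of 41 NRF2 and glutathione genes was called, all differences lay between -0.25 and 0.22, and the 95% interval of all 41 stayed within a 2-fold change. Gclc, the catalytic subunit of glutathione synthesis, differed by -0.11 (-0.33 to 0.11), Gclm, its modifier subunit, by -0.18 (-0.46 to 0.10), and Srxn1, sulfiredoxin, by -0.17 (-0.39 to 0.04). Hmox1, haem oxygenase, differed by 0.22 (0.01 to 0.44, adjusted p = 0.6623). None of 48 cytochromes P450, conjugating enzymes and related genes was called, and the intervals of 47 of them stayed within 2-fold. Cyp2e1, an enzyme that oxidises acetaminophen, had a mean signal of 5.19 with APAP and 5.12 with AMAP, a difference of 0.06 (-0.09 to 0.22). That signal was below those of the markers Ptprc and Pecam1, described above as low. The 48 genes had a median signal percentile of 30 among all genes, beside 88.6 for the NRF2 list. Small differences in dim genes are therefore weak evidence of equal expression. Gclc, Gclm, Srxn1, Cyp2e1 and Tgfa were picked for their known roles and after values had been seen.

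Metabolic and housekeeping lists were also without calls at 6 h. These were cholesterol synthesis (20 genes), fatty acid synthesis (24), PPAR alpha targets and fatty acid oxidation (23), ribosome biogenesis (50), YAP targets (22), TGF beta signalling (27), glycolysis and hypoxia (27), clock genes (17) and proteasome subunits (31). Their medians ran from -0.17 for cholesterol synthesis to 0.05 for glycolysis. In the cholesterol list 18 of 20 genes lay below 0, beside 10649 of all 19938 genes. Within all 3 array numbers 15 of the 20 were below 0, beside 16.3% of all genes. Lss, lanosterol synthase, differed by -0.38 ± 0.17 (95% interval -0.73 to -0.04) and Sqle, squalene epoxidase, by -0.35 ± 0.13 (-0.62 to -0.09), neither of which passed after adjustment (0.5771 and 0.3958). All intervals in the fatty acid synthesis, ribosome biogenesis and proteasome lists lay within a 1.5-fold change.

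**Figure D3:**
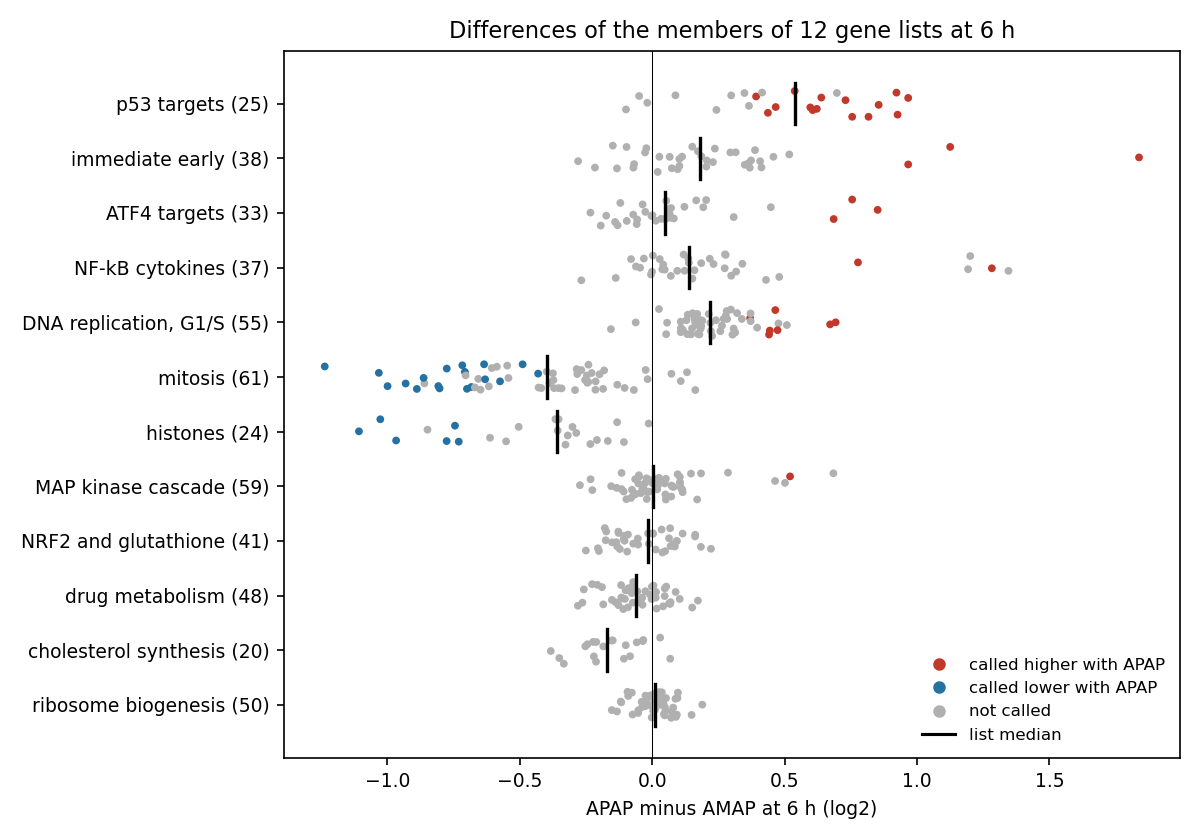
Difference between APAP and AMAP at 6 h (log2, horizontal axis) for each measured member of 12 gene lists, with the number of members in brackets. Called genes are red (higher with APAP) or blue (lower), and black bars are list medians, which run from -0.40 for mitosis to 0.54 for p53 targets.

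The same compounds at the same dose were compared at 2 h and 24 h on arrays that are not in the 6 h comparison. At 2 h 52 genes were called (0.261%) and at 24 h 928 (4.65%). Of the 141 genes called at 6 h, 137 had the same sign at 2 h (97.2%, beside 55% of all genes) and 133 at 24 h (94.3%, beside 57%). Those called at both times with the same sign numbered 21 for 2 h, which is 14.9% of the 6 h calls and 40.4% of the 2 h calls, and 86 for 24 h, which is 61% of the 6 h calls and 9.27% of the 24 h calls. None was called in opposite directions. The 95 genes higher at 6 h had median differences of 0.20, 0.52 and 0.68 at 2, 6 and 24 h, and the 46 lower genes had -0.39, -0.67 and -0.41. The 6 h medians are those that chose the genes.

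The called counts of the lists at 2 h and 24 h are given without a test of the change between times. Among p53 targets 2 of 25 were called higher at 2 h (0.0953% of all genes) and 20 at 24 h (1.87%), and the median was 0.31, 0.54 and 0.76 at 2, 6 and 24 h. Btg2 was already different at 2 h, by 1.15 ± 0.12 (adjusted p = 3.48e-06), whereas Fas differed by 0.19 ± 0.10 (adjusted p = 0.5822) at that time. Atf3 differed by 1.35 ± 0.24 at 2 h (adjusted p = 0.0053) and by 1.86 ± 0.24 at 24 h (adjusted p = 1.80e-05). Of the 38 immediate early genes 7 were called higher at 2 h, 3 at 6 h and 11 at 24 h, when 1 was called lower. Histone genes had their largest median at 2 h, at -0.88 with 15 of 24 called lower (0.166% of all genes), against 8 of 24 at 24 h (2.78%). H2ac4 differed by -2.46, -1.11 and -0.84 and H2bc3 by -1.89, -0.97 and -0.73 at 2, 6 and 24 h, and neither change from 2 h to 6 h passed the test (adjusted p = 0.2663 and 0.6612). Mitosis genes had medians of -0.36, -0.40 and -0.18, with 4 called lower at 2 h, and 6 called lower and 1 higher at 24 h. The cholesterol list reached a median of -0.74 at 24 h with 19 of 20 genes called lower, and the fatty acid list -0.34 with 12 of 24.

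**Figure D4:**
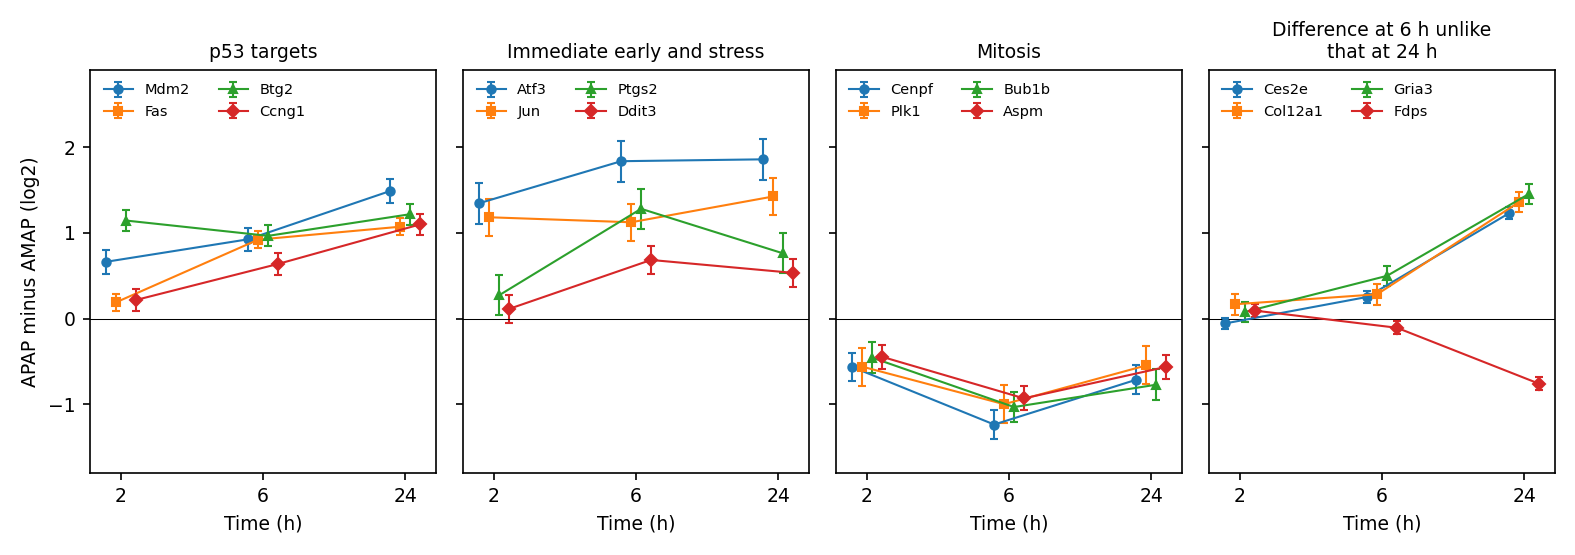
Difference between APAP and AMAP (log2, vertical axis) at 2, 6 and 24 h (horizontal axis, evenly spaced) for 16 genes, with the SE of the fit as bars. Mdm2 goes from 0.66 to 1.49, the mitotic genes shown are lowest at 6 h, and Ces2e, Col12a1 and Gria3 stand at 0.25, 0.28 and 0.50 at 6 h and at 1.23, 1.36 and 1.46 at 24 h.

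A direct test of the difference between times called few genes. Between 6 h and 2 h no gene passed under limma, with 1144 genes at an unadjusted p below 0.05, and the count was also 0 under the 18 alternative settings run. Between 6 h and 24 h 6 genes passed (0.0301%), with 1666 at an unadjusted p below 0.05. The carboxylesterases Ces2e and Ces2g, the collagen gene Col12a1, the glutamate receptor gene Gria3 and the exocyst gene Exoc4 had a larger APAP excess at 24 h (5 genes, 0.0251%). Fdps, farnesyl diphosphate synthase of the mevalonate pathway, differed by -0.11 at 6 h and by -0.76 at 24 h (1 gene, 0.00502%). Ces2e was the clearest. Its arrays read 9.96, 10.07 and 10.01 with APAP and 9.73, 9.80 and 9.75 with AMAP at 6 h, against 10.94, 11.06 and 10.79 and 9.70, 9.74 and 9.66 at 24 h. The AMAP arrays read alike at both times and the APAP arrays stood about a log2 unit higher at 24 h. The difference at 6 h was smaller than at 24 h by 0.98 on the log2 scale (adjusted p = 4.98e-06). With the array number as a block 30 genes passed. They then included Mdm2, whose difference at 6 h lay below that at 24 h (-0.56, adjusted p = 4.25e-02 with the block and 0.4316 without it), and Ccne1, whose difference was 0.69 at 6 h and -0.07 at 24 h (a change of 0.76, adjusted p = 4.08e-02 with the block and 0.1304 without it). Without the arrays numbered 30 the count was 0, without those numbered 31 it was 2, and without those numbered 32 it was 1. Leaving out single 6 h arrays gave 1 without AMAP array 31, 1 without APAP array 30, 2 without APAP array 32 and 12 without AMAP array 32.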

How the data were processed

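Total RNA of TAMH cells was hybridised to Affymetrix Mouse Gene 1.0 ST arrays. The authors deposited log2 values per probe set, summarised with RMA in Affymetrix Expression Console 1.1, per the submitters' processing notes; the log base was inferred from the range of the values. RMA quantile-normalises the arrays, so a shift common to most genes would not show. Of 35557 probe sets, 21789 had 1 gene symbol in the platform annotation, 1621 several and 12147 none. The brightest probe set of each symbol gave 19938 genes. No intensity or detection filter was applied, and genes of the lists that matched no probe set were not analysed here.

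The 9 group means of all 27 arrays were fitted with limma 3.58.1 in R 4.3.3 (lmFit, eBayes, two-sided, 18 residual degrees of freedom), with Benjamini-Hochberg adjustment over all genes and a threshold of 0.05. Fold changes are powers of 2 of the differences. The 3 arrays a group limit the precision to a median SE of 0.10. The model was tested on simulated data. Deviations of equally numbered APAP and AMAP arrays at 6 h from their group means correlated at 0.254, 0.323 and 0.433 for numbers 30, 31 and 32. The labels do not say what the numbers mark, and the numbers were tried as a block. Over all 27 arrays the consensus correlation of a random block by number was only 0.041. The reported values come from the fit without a block, which called 141 genes, beside 193 with the block over all arrays. Named genes were the 15 largest called differences each way without overlap of arrays and with a mean of at least 6 in the higher group, the 5 smallest p-values of each of 31 lists, called MAP kinase genes, and the 5 largest changes between times; other genes named were chosen after their values were seen. Members and lists were chosen with earlier results of these data known. Alternatives were other blocks, moderation, array weights, scalings, filters, probe set rules and left-out arrays.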

Additional observations from a re-analysis of the deposited data

Results flagged for a closer look

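The APAP minus AMAP difference at 6 h differed from that at 24 h, by limma's test of the change itself, for 6 genes. The 6 h difference minus the 24 h difference (log2) was as follows. It was -0.98 ± 0.10 for Ces2e (adjusted p = 4.98e-06), -0.86 ± 0.15 for Ces2g (adjusted p = 0.0192), -1.08 ± 0.17 for Col12a1 (adjusted p = 0.0133), -0.96 ± 0.17 for Gria3 (adjusted p = 0.0185) and -0.65 ± 0.11 for Exoc4 (adjusted p = 0.0185). For Fdps it was 0.65 ± 0.11 (adjusted p = 0.0162). Ces2e and Ces2g are paralogues of 1 family, so that cross-reading between their probe sets is possible and was not tested. At 24 h the Col12a1 arrays read 8.69, 8.35 and 8.66 with APAP, 7.16, 7.22 and 7.24 with AMAP and 7.23, 7.54 and 7.19 in the controls, so that AMAP and control overlapped. The Gria3 means at 6 h were 7.28 with APAP and 6.78 with AMAP.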

How the results depend on the processing

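The 141 called genes became 28 with the 6 arrays of the comparison alone, 46 with the 9 arrays of 6 h, 394 with array weights, 224 with the array number as a block within 6 h (9 arrays, chosen after seeing the data) and 10 with a 2-fold minimum; the 193 calls with the block over all arrays contained all 141. For higher genes the counts were 21, 34, 215 and 144 under the first 4 of these, and for lower genes 7, 12, 179 and 80, with 70 under the block over all arrays. The share of higher genes among the calls was 67.4%, and 54.6% with array weights. When all probe sets were tested, the 21789 with 1 symbol gave 64 higher and 23 lower. The 13768 with none or several symbols went the other way, with 9 higher and 28 lower. Leaving out arrays gave 18 to 167 called, 16 to 78 higher and 2 to 89 lower. The 6 genes that changed between 6 h and 24 h became 30 with the block, 15 with an intensity trend, 43 with array weights, 15 with arrays centred on their medians and 0 to 2 without 1 array number. Besides the genes given with blocked values in the text, the block changed no call of a named gene. All 48 called named genes kept their direction in the 1056 alternative values, but 40 lost their call in at least 1. Of the 15 largest increases 10, and of the 15 largest decreases 5, stayed called without any 1 of the 6 arrays. Changes of sign were examined only for the 174 named genes. Among these, the differences of 11 uncalled genes changed sign when arrays were left out. The ranges were -0.17 to 0.0040 for Cdh5, -0.0041 to 0.20 for Clec4g, -0.14 to 0.03 for Csf1r and -0.18 to 0.03 for Des. They were -0.01 to 0.19 for Emcn, -0.02 to 0.16 for Epcam, -0.01 to 0.42 for Hbegf and -0.10 to 0.50 for Krt7. For Psmb7 the range was -0.01 to 0.21, for Tie1 -0.20 to 0.02 and for Tyrobp -0.01 to 0.24. The causes of these shifts were not tested. The smallest called difference was 0.29.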
